A study of Mus musculus with 9 samples.

Results

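The interferon response genes examined here are 38 genes that cells switch on when they sense viral or other foreign nucleic acid or receive an interferon signal. They were chosen by symbol: each gene was represented by the row of the expression table that the platform annotation names with that gene alone, and by the brightest such row where there were several. Of the 38 genes, 36 had a row of their own, and 35 had a mean at or above the median of all rows, the condition for entering the tests, out of 16915 genes tested. The row of Oas3 lay below that limit at a mean of 5.07, Ifi44 had no row of its own, and Gbp5 stood on a row shared with another guanylate-binding protein gene, and that shared row was not used. Irf1 had a second, dim row with values between 4.79 and 5.09 that did not enter the tests.

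Interferons are secreted proteins that bind receptors coupled to Janus kinases. Type I and type III interferons activate a complex with Stat2 and Irf9 that binds the interferon-stimulated response element, while interferon gamma acts mainly through gamma-activated sites. In adipose tissue the response can be mounted by adipocytes as well as by the macrophages, lymphocytes and endothelial cells of the fat pad.

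Total RNA of inguinal white fat, a subcutaneous depot of the mouse, was hybridised to 9 Affymetrix arrays, 3 in each of 3 groups. The study asked how closely white fat whose adipocytes have lost Zfp423, a zinc finger transcription factor, resembles fat in which cold has induced thermogenic beige adipocytes. Cold-exposed controls carried the transgenes Adiponectin-rtTA and TRE-Cre with intact Zfp423 (Zfp423+/+) and spent the last 14 of their 28 days on doxycycline chow at 6 °C. Knockouts carried Adiponectin-rtTA, Tre-CRE and Zfp423loxP/loxP and were kept at room temperature for the 28 days of doxycycline. Room temperature controls had the genotype of the cold-exposed controls and the same 28 days of doxycycline without the cold. All mice were raised at room temperature and began doxycycline at 8 weeks of age, so transgenes and drug were common to the groups, and the adiponectin promoter limits the deletion to adipocytes while the tissue holds other cells too. No strain is given in the labels. Nothing in the labels states that replicate arrays are from different mice, and p-values therefore reflect only array-to-array spread, some of which may be technical.

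Zfp423 had log2 values of 7.56, 8.15 and 8.04 in knockouts, against 8.74, 8.22 and 8.40 in room temperature controls. The groups did not overlap, but the difference of -0.53 ± 0.20 (SE) did not pass over all genes (limma, adjusted p = 0.256). The 8 adipocyte markers had a mean log2 level between 16.67 and 17.23 on all arrays, and the beige marker Ucp1 stood between 18.34 and 19.92 on the cold and knockout arrays, against 11.74 to 13.07 on the room temperature control arrays. Each group had 1 array with the middle rank for most genes: cold replicate 2 for 53.0%, knockout replicate 3 for 66.8% and control replicate 3 for 60.4% of the 16915 genes. Tied values were ranked by array order, so the shares of these arrays can include ties. Whether these arrays are independent of the other 2 of their group was not tested, and counts are given without them as well.

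Stretches of 13 promoters are shown because they carry the sequence elements through which these genes are known to be switched on. RefSeq windows of 300 bases, from 250 before to 50 after the transcription start in mouse assembly GRCm38.p6, matched 30 of the 38 genes by symbol. They were searched on both strands for the core of the interferon-stimulated response element, GAAA followed after any 2 bases by another GAAA, and for TTCNNNGAA, the palindromic core of the gamma-activated site. The response element core was found for 18 of the 30 genes (60%), against 1079 of 27025 genes (3.99%), and TTCNNNGAA for 10 of 30 (33.3%), against 2582 of 27025 (9.55%). A gene counted where any of its windows held a match, so genes with several windows had more chances. In the 60 bases printed for each gene, capitals mark matches to either motif, and a response element core on the opposite strand reads TTTC, any 2 bases, TTTC.

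By role, the response element core was found in 3 of 3 sensors, 1 of 4 transcription factors (Stat2), 2 of 5 Ifit and Ifi effectors, 2 of 4 Oas genes and 3 of 4 other antiviral effectors with a window. It was in the Isg15 window as well and in 0 of 3 antigen-processing genes. The 8 windows that follow were picked for their matches, the response element core in all but Irf1, which held the gamma-activated core.
Irf1: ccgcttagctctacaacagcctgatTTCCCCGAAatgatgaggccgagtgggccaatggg
Isg15: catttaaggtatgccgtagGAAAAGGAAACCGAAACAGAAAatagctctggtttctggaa
Ifit1: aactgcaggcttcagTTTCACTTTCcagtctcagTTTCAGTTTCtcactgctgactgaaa
Ifit3: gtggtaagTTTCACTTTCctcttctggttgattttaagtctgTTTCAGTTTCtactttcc
Oas1a: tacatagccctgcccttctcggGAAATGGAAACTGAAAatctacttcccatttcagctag
Rsad2: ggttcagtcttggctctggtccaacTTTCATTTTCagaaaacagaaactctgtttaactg
Bst2: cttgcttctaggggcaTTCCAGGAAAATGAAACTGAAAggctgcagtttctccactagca
Trim30a: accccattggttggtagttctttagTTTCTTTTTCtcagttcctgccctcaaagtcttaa
Their positions are Irf1 at chr11:53769899-53769958 (plus strand), Isg15 at chr4:156200856-156200915 (minus strand), Ifit1 at chr19:34640770-34640829 (plus strand), Ifit3 at chr19:34583365-34583424 (plus strand), Oas1a at chr5:120907508-120907567 (minus strand), Rsad2 at chr12:26456538-26456597 (minus strand), Bst2 at chr8:71537565-71537624 (minus strand) and Trim30a at chr7:104465195-104465254 (minus strand). The Isg15 window held 3 overlapping matches that begin at positions -78, -72 and -66 relative to the transcription start, and the Ifit1 window held 2 separate ones. In Bst2 a TTCNNNGAA match overlaps the first of 2 response element cores.

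Among the interferon-inducible GTPases, all 6 genes with a window held the response element core, and 5 of them are shown.
Gbp2: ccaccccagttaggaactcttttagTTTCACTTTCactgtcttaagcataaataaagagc
Gbp3: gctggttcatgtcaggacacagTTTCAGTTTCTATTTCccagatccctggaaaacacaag
Gbp7: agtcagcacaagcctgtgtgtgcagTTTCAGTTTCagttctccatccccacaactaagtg
Igtp: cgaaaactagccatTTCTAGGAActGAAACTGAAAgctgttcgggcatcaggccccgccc
Irgm1: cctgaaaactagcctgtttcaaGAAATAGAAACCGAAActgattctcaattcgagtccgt
These lie at Gbp2 at chr3:142620579-142620638 (plus strand), Gbp3 at chr3:142559977-142560036 (plus strand), Gbp7 at chr3:142530258-142530317 (plus strand), Igtp at chr11:58199497-58199556 (plus strand) and Irgm1 at chr11:48871413-48871472 (minus strand). Igtp held the gamma-activated core just before its response element core, and of the 3 antigen-processing genes, 0 held the response element core and 1, Psmb8, held TTCNNNGAA. These matches describe the letters of the windows and say nothing of binding in this tissue.

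Neither cold nor loss of Zfp423 was accompanied by a change of interferon response genes that passed the test. Of the 35 genes tested, 0 passed between cold-exposed and room temperature controls, where 1.51% of all genes passed. Likewise 0 of 35 passed between knockouts and room temperature controls (0.367% of all genes) and 0 between cold-exposed controls and knockouts (2.39% of all genes), by limma with Benjamini-Hochberg adjustment over 16915 genes. At an unadjusted p under 0.05 the counts were 1, 1 and 6 of 35, where 20.3%, 16.2% and 26.8% of all genes passed. Limma with a mean-variance trend and robust estimation also called 0 in each comparison. The median log2 difference over the 35 genes was -0.25 for cold against room temperature controls, with 8 genes positive and 27 negative, against -0.02 over all genes. It was 0.09 for knockouts against room temperature controls (20 positive, 15 negative, 0.02 over all genes) and -0.35 for cold-exposed controls against knockouts (9 positive, 26 negative, -0.03 over all genes). The first and the second of these comparisons share the room temperature control arrays, and the third shares arrays with each of them. The standard errors were wide, with a median of 0.338 log2 units against 0.111 over all genes. Small differences were therefore not detectable, and larger ones could also miss the threshold. In bulk tissue, fewer cells of a type and less RNA per cell cannot be told apart.

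**Figure D1:**
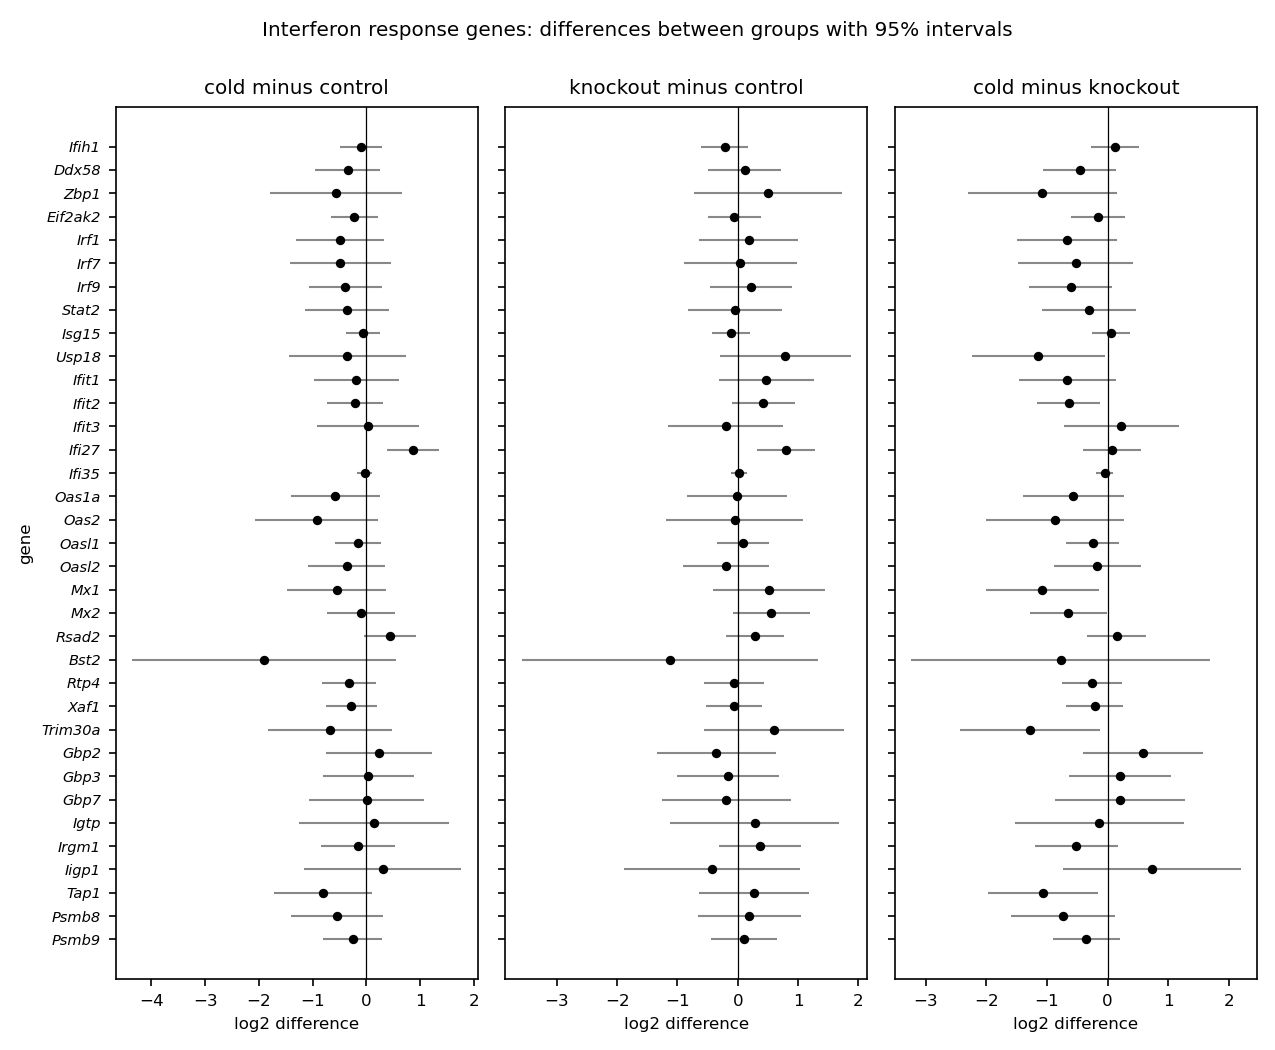
Log2 differences of the 35 genes (points) with 95% intervals (lines) for cold minus room temperature control, knockout minus room temperature control and cold minus knockout, genes in order of role. Ifi27 is the gene whose intervals lie above 0 in both comparisons with room temperature controls, at 0.87 in the cold and 0.80 in knockouts, and 0 genes passed after adjustment.

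Arrays did not overlap for 6 of 35 genes between cold-exposed and room temperature controls, where 32.7% of all genes did not overlap. Ifi27 was higher (14.6% of all genes) and Ddx58, Eif2ak2, Oas2, Bst2 and Tap1 were lower in the cold (18.1% of all genes). Between knockouts and room temperature controls 1 of 35 did not overlap, against 17.3% of all genes. This was Ifi27, 1 higher (9.31% of all genes) and 0 lower (8.01% of all genes). Between cold-exposed controls and knockouts 5 of 35 did not overlap, against 32.3% of all genes, and Usp18, Mx1, Mx2, Trim30a and Tap1 were all lower in the cold (20% of all genes), with 0 higher (12.3% of all genes). In each comparison the total share lay below that of all genes.

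Ifi27, a small hydrophobic protein found in mitochondria and at the nuclear envelope, differed in pattern from the other 34 genes. Its row also carries the symbol Ifi27l1, which RefSeq gives as a synonym. Ifi27 read 13.80, 13.58 and 13.33 on the cold arrays, 13.14, 13.93 and 13.45 on the knockout arrays and 12.82, 12.64 and 12.65 on the room temperature control arrays. All 6 arrays from cold-exposed controls and knockouts lay above all 3 room temperature control arrays. The means were 13.57 ± 0.24, 13.51 ± 0.39 and 12.71 ± 0.10 (SD, n = 3 each) in cold-exposed controls, knockouts and room temperature controls. The differences from room temperature controls were 0.87 ± 0.20 (SE) in the cold and 0.80 ± 0.20 in knockouts, with limma adjusted p of 0.093 and 0.129. The cold difference passed when fitted on its 2 groups alone (adjusted p = 0.0277) and without knockout replicate 1 or 2 (0.0432 and 0.0268), which enter only through the estimate of the spread. These alternatives called 1348, 826 and 986 of 16915 genes, against 255 in the fit of all 9 arrays. The knockout difference passed without knockout replicate 1, at 0.98 (adjusted p = 0.0414), where 827 of 16915 genes passed, against 62 with all 9 arrays. The thermogenic marker list had the same order as Ifi27 on the knockout arrays, with median differences from the room temperature control mean of 3.21, 5.39 and 4.66 on replicates 1, 2 and 3. The adipocyte (-0.40, -0.001 and -0.17), endothelial (-0.76, 0.05 and -0.19) and skeletal muscle lists (-1.75, 0.42 and -0.35) had that order too. On the room temperature control arrays the thermogenic list stood at -0.52, 0.43 and 0.07, not the order of Ifi27. The adipocyte (0.12, -0.15 and 0.02) and endothelial lists (0.22, -0.23 and -0.01) had the order of Ifi27 there. On the cold arrays the thermogenic (5.34, 5.10 and 4.67), adipocyte (0.03, -0.05 and -0.07) and endothelial lists (0.36, 0.28 and 0.09) had the order of Ifi27. So did the skeletal muscle (0.26, -0.93 and -4.59) and natural killer cell lists (-0.20, -0.32 and -0.41). The part of these cells in the Ifi27 result was not tested.

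The nucleic acid sensors start the response. The RNA helicase Ddx58 (RIG-I) read 9.14, 9.09 and 9.04 on the cold arrays, 10.14, 9.07 and 9.44 on the knockout arrays and 9.21, 9.68 and 9.42 on the room temperature control arrays. Its cold arrays lay below the others apart from knockout replicate 2, which fell among them, and the cold difference from room temperature controls was -0.35 ± 0.26 (adjusted p = 0.469). Zbp1, a sensor of Z-form nucleic acid that can trigger necroptosis, was even in the cold at 7.35, 7.33 and 7.43 but spread over 9.46, 7.37 and 8.51 in knockouts and 7.40, 8.62 and 7.80 in room temperature controls. Its highest knockout array exceeded its lowest by more than 2 log2 units, and its difference between cold-exposed controls and knockouts was -1.08 ± 0.52 (adjusted p = 0.231). Ifih1 (MDA5), a sensor of long double-stranded RNA, read 9.45, 9.25 and 9.03 in the cold, 9.39, 8.77 and 9.20 in knockouts and 9.37, 9.31 and 9.33 in room temperature controls. The room temperature control arrays lay within the range of the cold arrays, and Ifih1 differed by -0.10 ± 0.17 in the cold and -0.22 ± 0.17 in knockouts from room temperature controls (adjusted p = 0.770 and 0.557). Eif2ak2 (PKR), which halts translation on binding double-stranded RNA, had lower values on every cold array (9.94, 9.87 and 9.96) than on the room temperature control arrays (10.07, 10.29 and 10.07), a difference of -0.22 ± 0.19 (adjusted p = 0.530).

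The 4 transcription factors had the same order of arrays as one another in every group. Irf7, which drives type I interferon production, read 7.99, 7.87 and 7.74 on the cold arrays, 9.08, 7.62 and 8.48 on the knockout arrays and 7.80, 8.93 and 8.32 on the room temperature control arrays. The groups overlapped, with the highest values on knockout replicate 1 and control replicate 2. Irf1, an early transcription factor of the interferon gamma response, read 9.69, 9.35 and 8.94 in the cold, 10.61, 9.32 and 10.07 in knockouts and 9.55, 10.18 and 9.73 in room temperature controls. The same 2 arrays were again highest, and cold replicate 3 was lowest. Irf9, the DNA-binding subunit of the complex of the type I response, read 7.97, 7.84 and 7.69 in the cold, 9.01, 7.95 and 8.37 in knockouts and 7.87, 8.64 and 8.16 in room temperature controls, with overlap of all groups. Irf9 and Stat2, which brings the activating domain to that complex, differed from room temperature controls by -0.39 ± 0.29 and -0.36 ± 0.33 in the cold and by 0.22 ± 0.29 and -0.05 ± 0.33 in knockouts, with adjusted p between 0.468 and 0.966.

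In the Isg15 conjugation system, Isg15 is a ubiquitin-like protein attached to other proteins and Usp18 removes it and restrains the type I receptor. Usp18 read 7.45, 7.38 and 7.22 on the cold arrays, 9.36, 7.59 and 8.53 on the knockout arrays and 7.06, 8.27 and 7.78 on the room temperature control arrays. All cold arrays lay below all knockout arrays, a difference of -1.14 ± 0.46 (adjusted p = 0.173) that passed without knockout replicate 2, at -1.59 (adjusted p = 0.0429). Isg15, whose promoter held 3 matches, read 5.68, 5.80 and 5.80 in the cold, 5.90, 5.43 and 5.80 in knockouts and 5.67, 5.996 and 5.80 in room temperature controls. These values overlapped and lay near the limit for entering the tests, and Isg15 had a difference of -0.06 ± 0.13 in the cold and -0.11 ± 0.13 in knockouts. Its value was 5.80, identical to every deposited digit, on 4 arrays of the 3 groups. Such repeated values occurred for 9 of 35 genes, against 56.6% of all genes.

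The Ifit proteins bind foreign RNA. Ifit2 read 7.44, 7.28 and 6.82 on the cold arrays, 8.21, 7.43 and 7.84 on the knockout arrays and 7.30, 7.45 and 7.44 on the room temperature control arrays. Cold replicate 1 overlapped with knockout replicate 2, and the difference between cold-exposed controls and knockouts was -0.64 ± 0.22 (adjusted p = 0.128). It passed without knockout replicate 2, at -0.84 (adjusted p = 0.0406). Ifit1 read 7.02, 6.77 and 6.16 in the cold, 7.72, 6.71 and 7.5 in knockouts and 6.56, 7.26 and 6.69 in room temperature controls, with knockout replicates 1 and 3 above all other arrays. Ifit1 and Ifit3 differed by -0.66 ± 0.34 and 0.23 ± 0.40 in the same comparison (adjusted p = 0.250 and 0.748), and Ifi35, which binds the interferon-induced protein Nmi, varied least of the 35 genes, between 8.02 and 8.22.

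The Oas enzymes make oligoadenylates that activate the ribonuclease RNase L. Oas2 read 6.94, 7.24 and 7.24 on the cold arrays, 8.86, 7.15 and 8.03 on the knockout arrays and 7.34, 8.77 and 8.08 on the room temperature control arrays. All cold arrays lay below all room temperature control arrays and the difference was -0.92 ± 0.48 (adjusted p = 0.319). Oas1a read 6.67, 6.79 and 6.60 in the cold, 7.74, 6.71 and 7.30 in knockouts and 6.64, 7.89 and 7.26 in room temperature controls, with cold values close to the lowest of each other group. Oas1a differed by -0.58 ± 0.35 in the cold and -0.01 ± 0.35 in knockouts, and Oasl2 by -0.37 ± 0.31 and -0.19 ± 0.31. Oasl2 read 6.87, 6.79 and 6.42 in the cold, 7.35, 6.36 and 6.89 in knockouts and 6.58, 7.47 and 7.14 in room temperature controls. Oasl1, which in mice restrains translation of Irf7, read 5.60, 5.75 and 5.88 in the cold, 6.33, 5.64 and 5.996 in knockouts and 5.69, 6.12 and 5.88 in room temperature controls. All groups overlapped for both genes, and Oasl1 differed by -0.16 ± 0.19 and 0.09 ± 0.19 in the same order.

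Among the other antiviral effectors, Bst2 (tetherin), which holds budding virus at the cell surface, had the widest spread of the 35 genes. It read 7.41, 8.85 and 9.96 on the cold arrays, 11.20, 7.27 and 10.09 on the knockout arrays and 10.18, 11.06 and 10.69 on the room temperature control arrays. Knockout replicate 2 lay with the lowest cold array while knockout replicate 1 was the highest of all 9. The cold difference from room temperature controls was -1.90 ± 1.05 with a 95% interval of -4.36 to 0.56 (adjusted p = 0.341). The knockout difference was -1.12 ± 1.05, and it was 0.003 without knockout replicate 2. Bst2 marks plasmacytoid dendritic cells and B-lineage cells as well, and the B cell markers stood at -1.92, -1.35 and -0.81 on cold replicates 1, 2 and 3, the order of Bst2 there. The median of the plasmacytoid dendritic cell markers (5 of 6 tested) stood at -0.19, -0.41 and -0.33, another order. Their mean log2 level, at 6.73, 6.81 and 6.87, had the order of Bst2. The medians of the macrophage (-1.17, -1.07 and -0.95) and neutrophil lists (-0.44, -0.31 and -0.15) had it as well, and those of T cells and natural killer cells did not. The part of these cells in the Bst2 result was not tested.

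Mx1 and Mx2, dynamin-like GTPases that block virus replication, were lower on all cold arrays than on all knockout arrays. Mx1 read 5.69, 5.64 and 5.97 in the cold, 7.52, 6.09 and 6.92 in knockouts and 5.77, 6.86 and 6.34 in room temperature controls. Its difference between cold-exposed controls and knockouts was -1.08 ± 0.39 (adjusted p = 0.145), and -1.45 without knockout replicate 2 (adjusted p = 0.0386). For Mx2 it was -0.65 ± 0.27 (adjusted p = 0.180). Trim30a, which dampens Toll-like receptor signalling in mice, read 8.74, 9.03 and 9.36 in the cold, 11.12, 9.44 and 10.40 in knockouts and 8.996, 10.42 and 9.74 in room temperature controls. The cold and knockout arrays did not overlap (-1.28 ± 0.49, adjusted p = 0.159), and without knockout replicate 2 the difference was -1.72 (adjusted p = 0.0495). In total 5 genes passed in this comparison without that array, the fifth being Zbp1 at -1.61 (adjusted p = 0.0471), against 2700 of all genes. Rsad2 (viperin), an antiviral radical enzyme, differed by 0.44 ± 0.21 in the cold and 0.29 ± 0.21 in knockouts from room temperature controls (adjusted p = 0.282 and 0.540). Rtp4, a chaperone of receptors, differed by -0.32 ± 0.21 and -0.07 ± 0.21, and Xaf1, which promotes apoptosis, by -0.28 ± 0.20 and -0.07 ± 0.20, in the same order.

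The interferon-inducible GTPases, which act on vacuoles that hold pathogens and respond strongly to interferon gamma, had the widest range of the 8 roles over the cold arrays. Iigp1 read 10.63, 9.88 and 8.18 on cold replicates 1, 2 and 3, 9.12, 8.35 and 9.03 on the knockout arrays and 8.74, 9.89 and 9.13 on the room temperature control arrays. Igtp read 11.39, 10.51 and 9.17 on the cold arrays, 11.19, 9.76 and 10.53 on the knockout arrays and 9.79, 10.55 and 10.30 on the room temperature control arrays. The cold arrays of both genes covered a wider range than those of the other 2 groups, and all groups overlapped. Gbp2 read 12.71, 12.16 and 11.10 in the cold, 11.83, 10.88 and 11.51 in knockouts and 11.58, 12.00 and 11.70 in room temperature controls, again highest on cold replicate 1. Irgm1 read 8.73, 8.653 and 8.27 in the cold, 9.59, 8.66 and 8.97 in knockouts and 8.28, 9.11 and 8.73 in room temperature controls, a narrower range in the cold than the other GTPases named. Gbp3 and Gbp7 lay between 8.32 and 9.54 and between 10.87 and 12.58 over the 9 arrays. All 6 GTPases were highest on cold replicate 1 and lowest on cold replicate 3 within the cold group, with a median range of 1.55 log2 units there, against 0.94 in knockouts and 0.79 in room temperature controls. Their differences from room temperature controls lay between -0.15 and 0.31 in the cold and between -0.42 and 0.37 in knockouts. Over the cold arrays the median GTPase stood at 0.83, 0.19 and -0.72 relative to the room temperature control mean, while the T cell markers stood at -1.02, -1.08 and -1.05 and the macrophage markers at -1.17, -1.07 and -0.95. Markers of skeletal muscle, natural killer cells and endothelium had the order of the GTPases on these arrays. Skeletal muscle markers stood at 0.26, -0.93 and -4.59, natural killer cell markers at -0.20, -0.32 and -0.41 and endothelial markers at 0.36, 0.28 and 0.09. Thermogenic markers, at 5.34, 5.10 and 4.67, and adipocyte markers, at 0.03, -0.05 and -0.07, had that order as well. So did the T cell markers as mean log2 levels, at 8.46, 8.44 and 8.36, though not as medians. The part of these cells in the result was not tested.

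Antigen-processing genes supply peptides to class I histocompatibility molecules. Tap1, a subunit of the peptide transporter, read 9.90, 9.82 and 9.44 on the cold arrays, 11.44, 10.13 and 10.78 on the knockout arrays and 9.97, 11.11 and 10.46 on the room temperature control arrays. The cold arrays lay below all others, by -1.07 ± 0.39 against knockouts (adjusted p = 0.143) and -0.80 ± 0.39 against room temperature controls (adjusted p = 0.290). Psmb8, a subunit of the immunoproteasome, read 8.62, 8.26 and 7.74 in the cold, 9.48, 8.34 and 9.02 in knockouts and 8.39, 9.24 and 8.62 in room temperature controls. The groups overlapped, and Psmb8 and the further subunit Psmb9 differed from room temperature controls by -0.55 ± 0.37 and -0.25 ± 0.23 in the cold and by 0.19 ± 0.37 and 0.10 ± 0.23 in knockouts. All 3 genes were highest on cold replicate 1 and lowest on cold replicate 3 within the cold group.

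**Figure D2:**
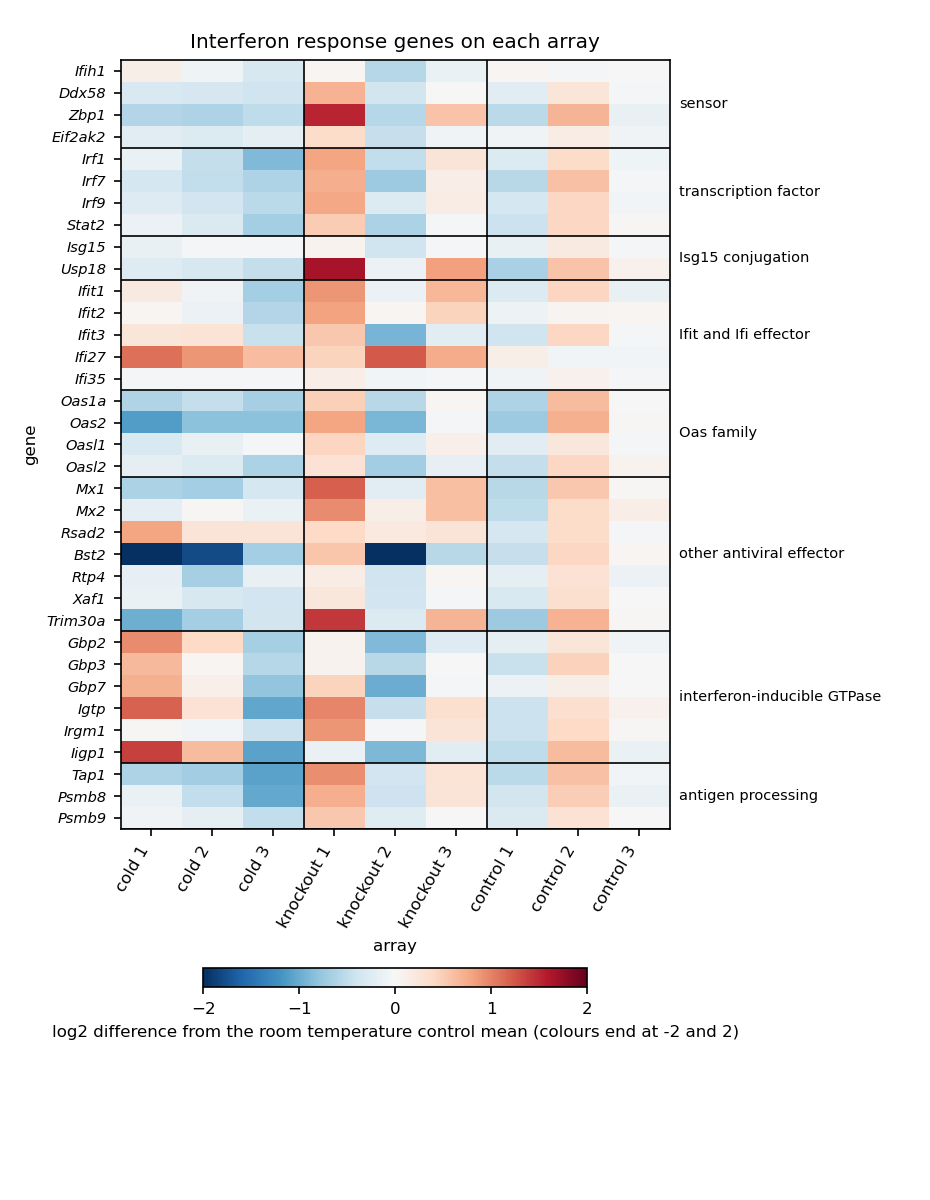
Log2 difference of each of the 35 genes (rows, by role) from the room temperature control mean on each array (columns), from blue (lower) to red (higher), with colours ending at -2 and 2. Knockout replicate 1 and control replicate 2 are red for most genes and knockout replicate 2 and control replicate 1 are blue, while Ifi27 is red on all cold and knockout arrays.

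The interferon response genes shared an order of arrays within the knockouts and within the room temperature controls, and less so in the cold. Knockout replicate 1 was the highest of its group for 34 of 35 genes and knockout replicate 2 the lowest for 34, the exception in both being Ifi27. Control replicate 2 was the highest of the room temperature controls for 33 genes and control replicate 1 the lowest for 32. Cold replicate 1 was the highest of its group for 22 genes and the lowest for 7, and cold replicate 3 the lowest for 23 and the highest for 9. Bst2, Trim30a, Oasl1, Oas2 and Ifi35 were lowest on cold replicate 1 and highest on cold replicate 3, the reverse of the GTPases. For Oas2 (7.235 and 7.238) and Ifi35 (8.069 and 8.070) cold replicates 2 and 3 were nearly equal. Relative to the room temperature control mean, the median gene stood at -0.13, -0.27 and -0.51 on cold replicates 1, 2 and 3, at 0.54, -0.40 and 0.05 on the knockout arrays and at -0.36, 0.40 and -0.02 on the room temperature control arrays. The number of genes above the room temperature control mean was 12, 9 and 2 on the cold arrays, 34, 4 and 21 on the knockout arrays and 2, 33 and 11 on the room temperature control arrays. Knockout replicate 1 and control replicate 2 thus had nearly all genes above that mean, although they belong to different groups.

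**Figure D3:**
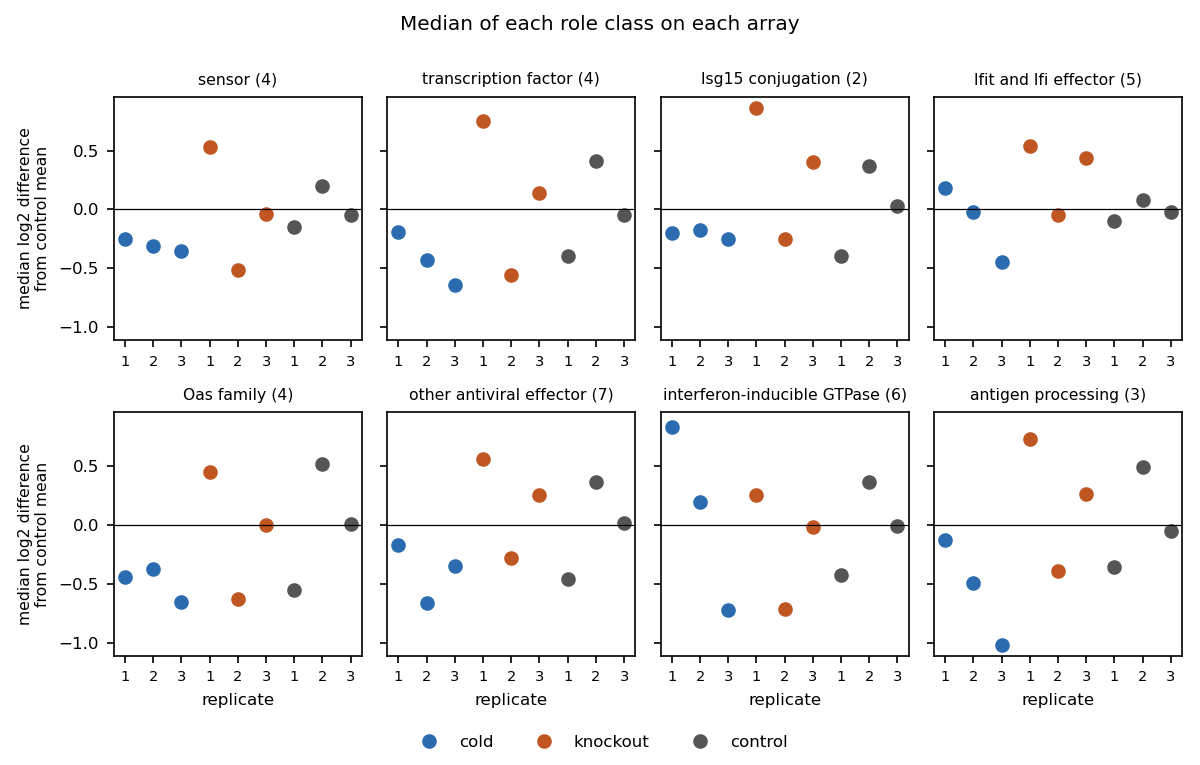
Median log2 difference from the room temperature control mean of the genes of each role (panels, gene number in brackets) on replicates 1 to 3 of cold-exposed controls, knockouts and room temperature controls, in that order. Knockout replicate 1 lies above knockout replicate 2 in all 8 roles, and the GTPases span 0.83 to -0.72 over the cold arrays.

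The spread within groups was wider than for most genes. The residual SD had a median of 0.452 log2 units over the 35 genes, against 0.144 over all genes tested, and 31 of 35 exceeded the 75th percentile of all genes (0.250). It was highest for Bst2 at 1.41, Iigp1 at 0.83 and Igtp at 0.80, and lowest for Isg15 at 0.18 and Ifi35 at 0.07. The median range between the arrays of a group was 0.46 in cold-exposed controls, 1.01 in knockouts and 0.77 in room temperature controls, against 0.15, 0.26 and 0.20 over all genes. A wide spread was not particular to these genes. Median residual SDs were 0.553 for T cell, 0.593 for macrophage, 0.638 for thermogenic, 0.712 for B cell and 1.54 for skeletal muscle markers. The other cell type lists had narrower medians, such as 0.370 for endothelial and 0.293 for natural killer cell markers. The arrays that lay between the other 2 did so for 26 of 35 genes in the cold, 35 in knockouts and 34 in room temperature controls, with ties not counted here. Without those 3 arrays 0 of 35 genes passed in each comparison (limma; also 0 at an unadjusted p under 0.05), and 0 of all 16915 genes passed either.

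**Figure D4:**
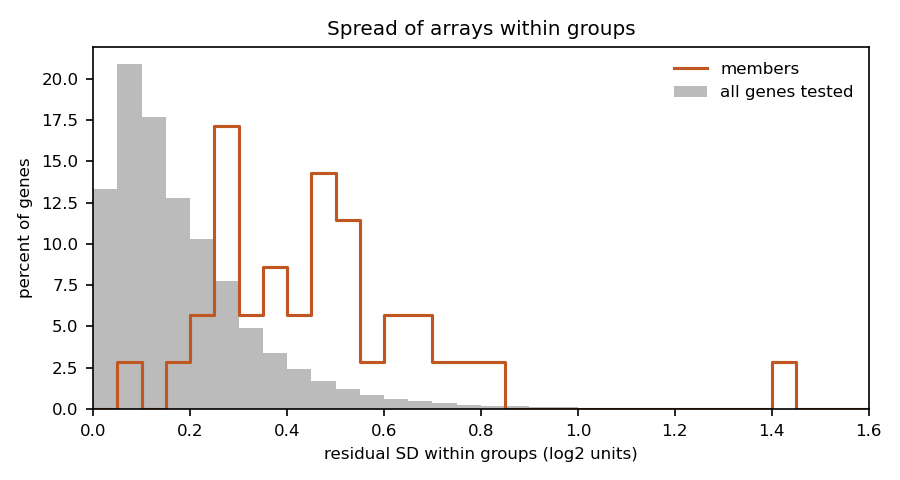
Distribution of the residual SD within groups (x axis, log2 units) as percent of genes (y axis) for the 35 interferon response genes (line) and all 16915 genes tested (bars). The median of the interferon response genes, 0.452, lies to the right of that of all genes, 0.144, and 1 gene, Bst2, lies at 1.41.

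Medians of the T cell, macrophage, B cell and natural killer cell markers followed the order of the interferon response genes on the knockout and room temperature control arrays. Of these lists the natural killer cell list did so in the cold. The T cell list (9 of 10 markers tested) stood at -1.02, -1.08 and -1.05 on the cold arrays, 1.51, -0.19 and 0.88 on the knockout arrays and -0.31, 0.40 and -0.01 on the room temperature control arrays. The macrophage list (10 of 10) stood at -1.17, -1.07 and -0.95 in the cold, 0.27, -1.01 and -0.31 in knockouts and -0.51, 0.55 and -0.05 in room temperature controls. Both lists were highest on knockout replicate 1 and control replicate 2 within their groups, like the interferon response genes. The B cell list (7 of 8) stood at -1.92, -1.35 and -0.81 on the cold arrays, 0.52, -1.02 and -0.12 on the knockout arrays and -0.81, 0.77 and 0.02 on the room temperature control arrays. The natural killer cell list (6 of 8) stood at -0.20, -0.32 and -0.41 in the cold, 0.42, -0.15 and 0.15 in knockouts and -0.20, 0.27 and -0.08 in room temperature controls. In the cold the B cell and macrophage lists were lowest on replicate 1, where the median interferon response gene was highest of that group, while the natural killer cell list had the order of that median. As mean log2 levels, the T cell list lay between 8.36 and 8.46 in the cold, 9.17 and 10.86 in knockouts and 9.07 and 9.79 in room temperature controls, and the macrophage list between 8.57 and 8.73, 8.58 and 10.18, and 9.18 and 10.25. The log2 scale has no 0, and of these 4 lists 2 natural killer cell markers, Klre1 and Prf1, fell below the limit for testing. The plasmacytoid dendritic cell list (5 of 6) followed the interferon response genes on the knockout arrays, at 0.50, -0.05 and 0.11. On the room temperature control arrays it stood at -0.018, -0.002 and 0.005, another order. The neutrophil list (5 of 8) followed the interferon response genes in both groups. In the opposite direction, adipocyte markers (8 of 8) stood at -0.40, 0.00 and -0.17 on the knockout arrays and endothelial markers (8 of 8) at -0.76, 0.05 and -0.19. The part of these cell types in the pattern of the interferon response genes was not tested.

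**Figure D5:**
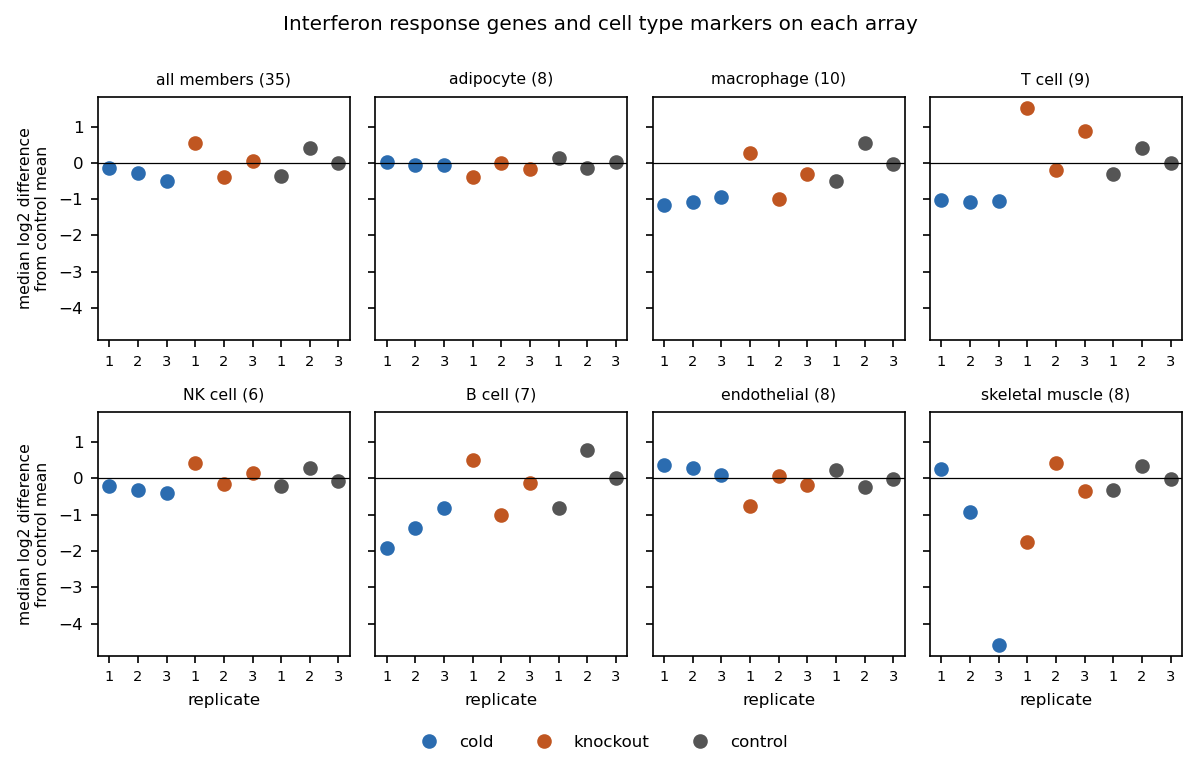
Median log2 difference from the room temperature control mean of the 35 interferon response genes and of 7 cell type marker lists (panels, gene number in brackets) on replicates 1 to 3 of cold-exposed controls, knockouts and room temperature controls, in that order. T cell and macrophage markers are near -1 on all cold arrays and, like the interferon response genes, higher on knockout replicate 1 than on replicate 2.

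Of the rest of the interferon pathway, 0 genes passed in any of the 3 comparisons. Of 9 interferon ligand genes 2 passed the limit for testing, Ifnl2 and Ifnl3, and they stood between 5.30 and 5.67 on all arrays. Receptors and kinases (8 of 10 tested) had median differences from room temperature controls of -0.22 in the cold and 0.04 in knockouts. Arrays did not overlap for 5 of these 8 in the cold, all lower (18.1% of all genes), and for 1 in knockouts, lower (8.01% of all genes). Jak1, the kinase common to the interferon receptors, read 12.57, 12.64 and 12.82 in the cold, 13.71, 12.79 and 13.31 in knockouts and 13.05, 13.35 and 13.19 in room temperature controls. Its cold arrays lay below all room temperature control arrays (-0.52 ± 0.22, adjusted p = 0.244). Ifngr2, a chain of the interferon gamma receptor, differed in the cold by -0.44 ± 0.10 (adjusted p = 0.097), and the other chain, Ifngr1, differed in knockouts by -0.48 ± 0.18 (adjusted p = 0.246). The kinase Tyk2 differed in knockouts by 0.16 ± 0.16 (adjusted p = 0.661).

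The 14 genes that lead to interferon production had median differences of -0.32 in the cold and 0.21 in knockouts. Sting1, the adaptor for cytosolic DNA, read 9.21, 9.34 and 9.24 in the cold, 11.22, 9.76 and 10.62 in knockouts and 9.92, 10.57 and 10.09 in room temperature controls. The cold arrays lay below all others, by -0.93 ± 0.35 against room temperature controls (adjusted p = 0.207). Tlr9, a sensor of DNA in endosomes, differed by -0.87 ± 0.37 in the cold and 0.49 ± 0.37 in knockouts. Mavs, the mitochondrial adaptor of the RNA helicases, differed by 0.66 ± 0.28 in the cold, a positive value where the list's median is negative, and by 0.70 ± 0.28 in knockouts, with adjusted p of 0.250 and 0.290. Its cold arrays lay above all room temperature control arrays, and so did its knockout arrays. Arrays did not overlap for 6 of the 14 genes in the cold (5 lower, 1 higher, against 18.1% and 14.6% of all genes). In knockouts they did not overlap for 4 (4 higher, against 9.31% of all genes).

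Negative regulators (6 of 7 tested) had medians of -0.23 in the cold and -0.04 in knockouts. Arrays did not overlap for 2 of the 6 in the cold (lower, 18.1% of all genes) and 1 in knockouts (higher, 9.31% of all genes). The phosphatase Ptpn6 differed by -1.14 ± 0.50 in the cold and Ptpn2, a phosphatase that acts on Janus kinases, by 0.36 ± 0.12 in knockouts (adjusted p = 0.254 and 0.207). Irf2, which competes with Irf1 for its sites, differed by -0.47 ± 0.23 and -0.41 ± 0.23 in the cold and in knockouts. Among 33 tested of 42 other interferon-induced genes, arrays did not overlap for 17 in the cold, all lower (18.1% of all genes), and for 4 in knockouts, all lower (8.01% of all genes). Between cold-exposed controls and knockouts 4 of the 33 were lower on all cold arrays and 2 higher (20% and 12.3% of all genes). Ifitm3, a membrane protein that blocks virus entry, read 12.97, 12.99 and 12.58 in the cold, 13.18, 12.72 and 12.84 in knockouts and 13.59, 13.75 and 13.54 in room temperature controls. It was lower on all 6 cold and knockout arrays, by -0.78 ± 0.15 and -0.71 ± 0.15 (adjusted p = 0.062 and 0.089), which is the opposite direction to Ifi27. Ccl5, a chemokine that T cells and natural killer cells make, differed by -1.67 ± 0.54 in the cold (adjusted p = 0.166) and Ciita, which switches on class II histocompatibility genes, by -1.20 ± 0.50 (adjusted p = 0.239). Lgals9, a galectin, differed by -0.55 ± 0.19 in knockouts (adjusted p = 0.212).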

How the data were processed

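Biotin-labelled RNA of each sample was hybridised to 1 Affymetrix Mouse Transcriptome Array, per the labels. The values used are the log2 intensities that the authors deposited for 72688 rows. They were made with Affymetrix Expression Console, per the submitters' processing notes. The program's version, the genome build and how probes were summarised and normalized are not given in the sources used. That they are on the log2 scale was read from their range, 1.84 to 19.93.

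Rows were named through the platform annotation, with 827 symbols updated by Entrez ID. Rows with 1 gene were tested where their mean reached the median of all row means (5.31), with the brightest row per gene. R 4.3.3 and limma 3.58.1 (lmFit, eBayes) fitted 3 group means over 9 arrays (6 residual and 1.23 prior degrees of freedom), and p-values were Benjamini-Hochberg adjusted over 16915 genes and set against 0.05. Differences carry moderated standard errors, and the fit was tested on simulated data. The number of arrays limits the precision. The genes and the lists were chosen with earlier results of these data known, and 13 promoters were chosen for their motif matches. By a rule, values on every array are given for the 2 genes of each role with the largest difference in each comparison with room temperature controls, and the 2 such genes of each other pathway list are named. Igtp, whose groups overlapped, was added after its values were seen. So were Eif2ak2, Mx1 and the other genes named for groups that did not overlap, and the array values of Jak1, Sting1 and Ifitm3. The alternatives were other filters, normalizations, variance models, samples and rows, a replicate block and leaving out each array.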

Additional observations from a re-analysis of the deposited data

How the results depend on the processing

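The count of 0 genes past the threshold held with other filters, quantile normalization, median centring, limma's trend and robust settings, all rows of a gene averaged, bright rows left out and the 2 groups alone, except that the 2 groups alone called 1, Ifi27, between cold-exposed and room temperature controls. With array weights 19 of 35 genes passed for cold against room temperature controls, 21 for knockouts against room temperature controls and 24 for cold-exposed controls against knockouts, but the estimation stopped before its tolerance, gave knockout replicate 3 a weight of 1454 and called 8967, 11831 and 9975 of 16915 genes. Leaving out each array in turn gave 0 to 1, 0 to 1 and 0 to 5 of 35 genes, beside 23 to 986, 0 to 827 and 14 to 2700 of all 16915, and medians of -0.39 to -0.12, -0.12 to 0.33 and -0.60 to -0.13. With the replicate number as a block 0 of 35 genes passed in each comparison, beside 42, 1 and 36 of all 16915 (limma, lowest adjusted p of 0.198, 0.223 and 0.204). The labels do not say whether the numbers pair the samples. Correlations of same-numbered deviations lay between -0.46 and 0.08, while knockout replicate 1 and control replicate 2 had 0.47. Deviations within a group depend on one another, so these correlations cannot decide the pairing. Of 1371 values of single genes over 22 genes, 1281 kept their direction and side of the threshold, 54 passed where the reported value did not and 36 changed sign. Most of the 54 came from the fit with array weights. The rest were Ifi27 against room temperature controls and, without knockout replicate 2, Ifit2, Trim30a, Usp18 and Zbp1 between cold-exposed controls and knockouts. With array weights Oas1a in knockouts became 0.043, Ifit1 in the cold 0.0078 and Isg15 between cold-exposed controls and knockouts -0.021, and without the arrays between the other 2, an alternative chosen after seeing the data, Irf7 in knockouts became -0.016. The other changes of sign came from leaving out single arrays. For cold against room temperature controls these were Gbp2 -0.13 to 0.68, Ifih1 -0.20 to 0.0087, Ifit1 -0.37 to 0.056, Iigp1 -0.22 to 1.00, Irgm1 -0.37 to 0.049 and Isg15 -0.14 to 0.024. For knockouts against room temperature controls these were Bst2 -1.97 to 0.0025, Ddx58 -0.18 to 0.35, Irf1 -0.12 to 0.52, Irf7 -0.30 to 0.43, Irf9 -0.066 to 0.46, Isg15 -0.21 to 0.027, Oas1a -0.32 to 0.30, Oas2 -0.47 to 0.38, Oasl1 -0.080 to 0.26, Oasl2 -0.44 to 0.059, Psmb8 -0.074 to 0.50 and Tap1 -0.060 to 0.60. For cold-exposed controls against knockouts these were Bst2 -1.90 to 0.065, Ifi27 -0.11 to 0.28, Ifih1 -0.052 to 0.25, Isg15 -0.090 to 0.15 and Oasl2 -0.43 to 0.068. The causes were not tested. With 3 arrays a group and a median standard error of 0.338, small differences were not detectable. Differences well above that error could miss the threshold too, as Ifi27 did at 0.87 in the cold.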

Other observations

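Cxcl9, a chemokine induced by interferon gamma, was looked at after its values were seen. It read 13.34, 12.56 and 10.95 on cold replicates 1, 2 and 3, 11.96, 11.45 and 11.74 on the knockout arrays and 11.94, 12.46 and 12.27 on the room temperature control arrays, the order of the GTPases on the cold arrays. Cxcl10, another chemokine of the same family, stood between 5.22 and 6.09 on all 9 arrays.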
